A study of Mus musculus with 8 samples.

Results

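The 9 genes described here encode the relay that carries a signal from ST2, the IL-33 receptor, into the cell. They were taken by gene symbol from the deposited expression table, which holds 12417 entries. The list was *Myd88* (the adaptor), *Irak4*, *Irak1*, *Irak2* and *Irak3* (the IRAK family), *Traf6*, *Tab2* and *Map3k7* (the TRAF6 and TAK1 step), and *Tollip* (a brake). All 9 were in the table, and all 9 passed the filter on low values.

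IL-33 brings ST2 together with the IL-1 receptor accessory protein, and the paired TIR domains inside the cell recruit MyD88. MyD88 stacks with IRAK4, which activates IRAK1 and IRAK2. These kinases engage the ubiquitin ligase TRAF6, and the kinase TAK1, held by TAB2, then switches on NF-κB and the MAP kinases. IRAK-M, the product of *Irak3*, and Tollip hold this relay back. IRAK-M is best known from monocytes and macrophages, where it limits repeated responses to microbial products.

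RNA-Seq libraries came from donor CD4+ T cells sorted from the spleens of 4 BALB/c mice on d5 after allogeneic hematopoietic cell transplantation, a model of graft-versus-host disease. Each recipient had been lethally irradiated and given both donor populations together with T cell-depleted B6 bone marrow, so the 8 libraries form 4 pairs. The comparison asks which transcripts of donor CD4+ T cells depend on ST2 within the same host. ST2WT cells were B6 CD45.1+ with intact St2. ST2fl/fl cells were B6 CD45.2+ and carried *St2fl/fl*, the *R26-LSL-YFP* reporter and *CD4-Cre*. Cre, driven by the CD4 promoter, removes part of the floxed *St2* gene in T cells and turns on YFP from the Rosa26 locus. The genotypes therefore also differ in the CD45 allele, in Cre and in the reporter, and these differences cannot be told apart from the loss of ST2 by the libraries alone. Equal replicate numbers were read as the same recipient.

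The values are the authors' TPM, a transcript measure scaled for gene length and library size, so that levels of different genes can be compared. They summed to 999334 to 999527 per library and carry no read counts, which leaves depth and counting error unknown. Differences were tested with limma on log2(TPM + 1) over the 10238 genes whose mean reached 1 TPM. The threshold combined an adjusted p under 0.05 with a change of more than 1.5-fold, and positive log2 fold changes denote higher values in ST2WT cells. *Il1rl1*, the gene of ST2, was 14.6 to 21.3 TPM in ST2WT and 14.9 to 17.7 TPM in ST2fl/fl libraries (adjusted p = 0.608 from limma). Reads from exons outside the deleted part can enter this whole-gene value, so it checks no label. The ST2WT library of recipient 2 stood apart, with an SD from the other libraries of its genotype of 0.465 on the log2 scale against 0.242 to 0.279 in the remaining 7. The T cell markers were all present, with *Cd4* at 113 to 159 TPM in ST2WT and 166 to 197 TPM in ST2fl/fl libraries. In bulk libraries fewer cells of a type and less RNA per cell cannot be told apart.

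The relay was expressed in both genotypes, and 1 of its 9 genes passed the threshold between them. *Irak3*, the gene of the inhibitory family member IRAK-M, was on average 5.05 times as high in ST2WT as in ST2fl/fl cells. *Irak2*, an activating family member, was lower in the ST2WT library of every recipient and did not overlap between genotypes either, but the difference did not pass the threshold. The adaptor, the other 2 kinases, the TRAF6 and TAK1 step and Tollip had overlapping values in the 2 genotypes. Thus 1 of 9 genes passed in the direction of ST2WT, where 0.244% of all genes tested passed (25 genes), and 0 of 9 passed in the other direction, where 0.273% of all genes did (28 genes). With the recipient as a block, 38 genes passed as higher and 57 as lower, and *Irak3* was again the single one among the 9. At an unadjusted p under 0.05 there were 2 of the 9 genes, 1 in each direction, against 13.9% of all genes tested. The median log2 fold change was -0.12 over the 9 genes and -0.01 over all genes.

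**Figure D1:**
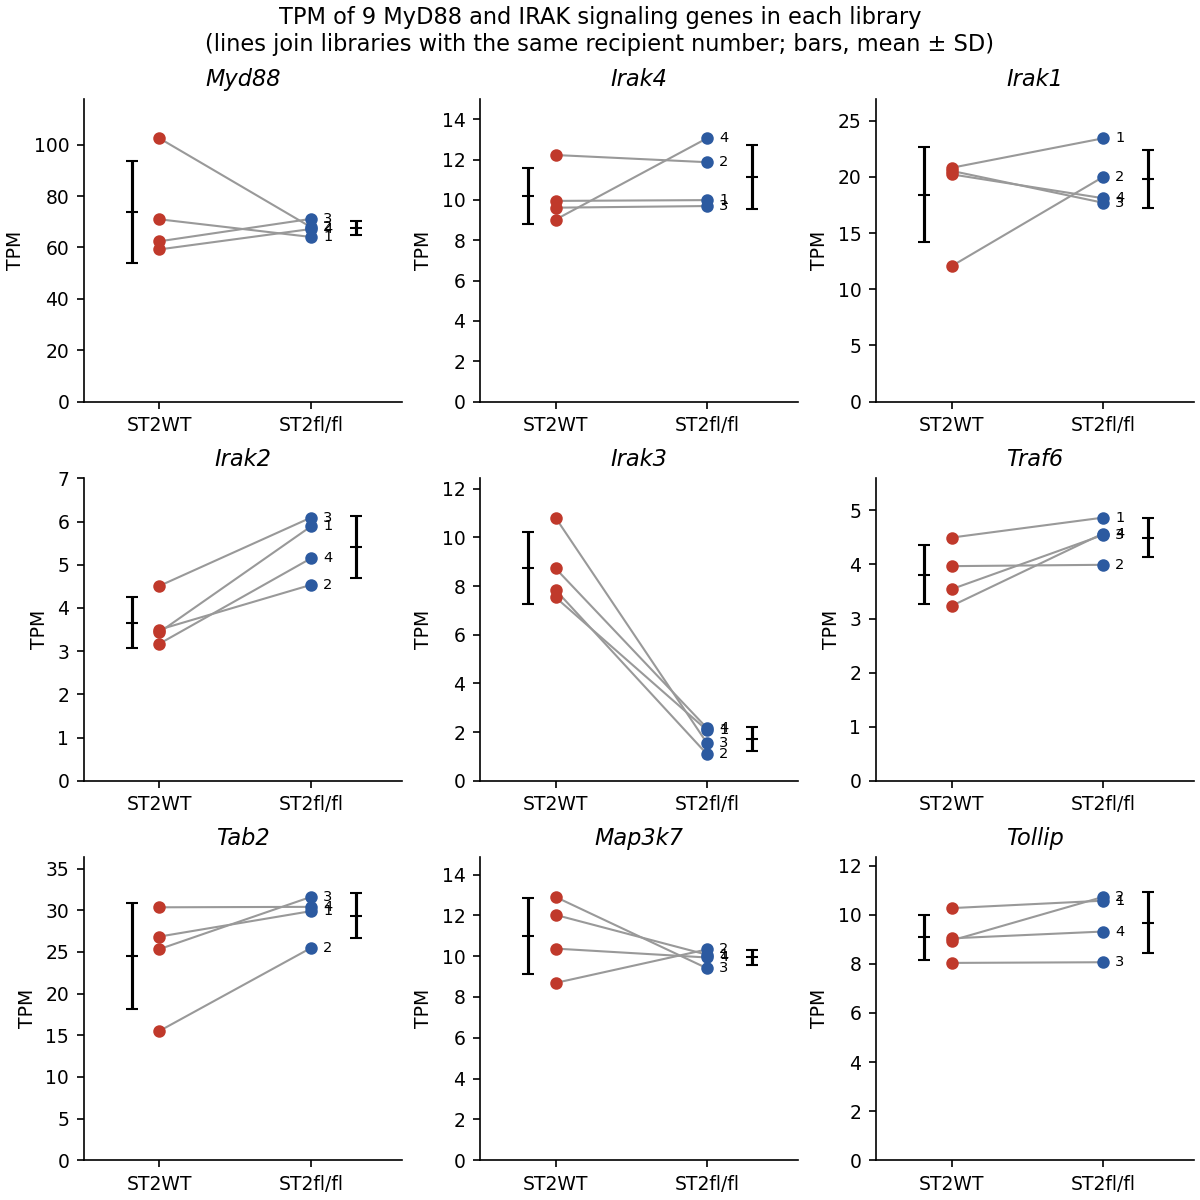
TPM of each of the 9 genes (vertical axes, each from 0) in the 4 ST2WT and 4 ST2fl/fl libraries, with lines joining libraries of the same recipient number and bars giving the mean ± SD. The *Irak3* lines all fall from 7.54 to 10.8 TPM in ST2WT to 1.10 to 2.17 TPM in ST2fl/fl, the *Irak2* lines all climb, and the *Myd88*, *Irak1* and *Tab2* panels each hold 1 ST2WT library, that of recipient 2, away from the other 3.

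*Myd88*, the adaptor on which ST2 and most Toll-like receptors depend, was the most abundant of the 9 transcripts. The gene spans 119335934 to 119341411 of chromosome 9 (GRCm38, as for all positions here). ST2WT libraries of recipients 1 to 4 held 71.0, 102, 62.4 and 59.2 TPM, and the paired ST2fl/fl libraries 64.1, 67.9, 71.1 and 67.2 TPM. The ST2fl/fl libraries lay close together, and the ST2WT libraries surrounded them, with recipient 2 far above the rest. The means were 73.8 ± 19.8 and 67.6 ± 2.89 TPM (SD, n = 4 each), and the log2 fold change of 0.09 had a 95% interval from -0.25 to 0.43 (adjusted p = 0.798 from limma). Without the ST2WT library of recipient 2 the log2 fold change was -0.08 (adjusted p = 0.679 from limma). *Myd88* shares 290 of its 2576 exon bases (11.3%) with *Acaa1a* on the other strand, and whether reads were counted by strand is not given in the sources used here. *Acaa1a* itself was 19.4 and 19.1 TPM on average in the 2 genotypes.

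*Irak4*, on chromosome 15 from 94543643 to 94581815, encodes the first kinase recruited by MyD88. It was 9.95, 12.2, 9.61 and 9.02 TPM in the ST2WT libraries of recipients 1 to 4 and 9.99, 11.9, 9.69 and 13.0 TPM in the ST2fl/fl libraries. In recipients 1, 2 and 3 the paired libraries were nearly level, and recipient 4 had the widest gap. The log2 fold change was -0.12 (95% interval -0.41 to 0.18, adjusted p = 0.700 from limma). Of its 5021 exon bases, 395 (7.87%) are shared with *Twf1* on the other strand, which was 30.3 and 30.4 TPM on average. *Irak1*, on chromosome X from 74013914 to 74023918, encodes the kinase that IRAK4 activates next. It was 20.8, 12.1, 20.5 and 20.2 TPM in ST2WT and 23.4, 20.0 (19.98), 17.7 and 18.1 TPM in ST2fl/fl libraries. Apart from recipient 2, the ST2WT libraries lay within 20.2 to 20.8 TPM, inside the ST2fl/fl range. The log2 fold change was -0.12 with recipient 2 (95% interval -0.51 to 0.26, adjusted p = 0.755 from limma) and 0.06 without its ST2WT library (adjusted p = 0.837 from limma).

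*Irak3* was the member of the relay that differed. The gene lies on the minus strand of chromosome 10 from 120141648 to 120202130. ST2WT libraries of recipients 1 to 4 held 7.54, 7.85, 10.8 and 8.73 TPM. The paired ST2fl/fl libraries held 2.08, 1.10, 1.56 and 2.17 TPM. Every ST2WT library was above every ST2fl/fl library. The ratio within a recipient was 3.62, 7.12, 6.95 and 4.02.

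The means of *Irak3* were 8.73 ± 1.48 TPM in ST2WT and 1.73 ± 0.499 TPM in ST2fl/fl cells (SD, n = 4 each). On the log2(TPM + 1) scale, which understates the change of a gene this low, the difference was 1.84 (SE 0.17, 95% interval 1.48 to 2.21), with an adjusted p of 0.000463 from limma. The two-sided exact permutation p was 0.0286, the smallest that 4 against 4 libraries allow. With genotypes swapped only within recipients, the 16 arrangements gave an exact p of 0.125 for *Irak3*, *Irak2*, *Traf6*, *Tab2* and *Tollip*, the smallest that 4 pairs allow. By unadjusted p, *Irak3* stood at rank 7 of the 10238 genes tested, and by fold change at rank 5 of the 25 that passed as higher. Of the 9 genes 1 had all ST2WT libraries above all ST2fl/fl libraries, as did 4.58% of all genes tested, and 1 had them all below, as did 5.45%. The call was kept in the fit blocked by recipient (adjusted p = 0.00351 from limma) and without the ST2WT library of recipient 2 (log2 fold change 1.88, adjusted p = 0.000806 from limma).

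**Figure D2:**
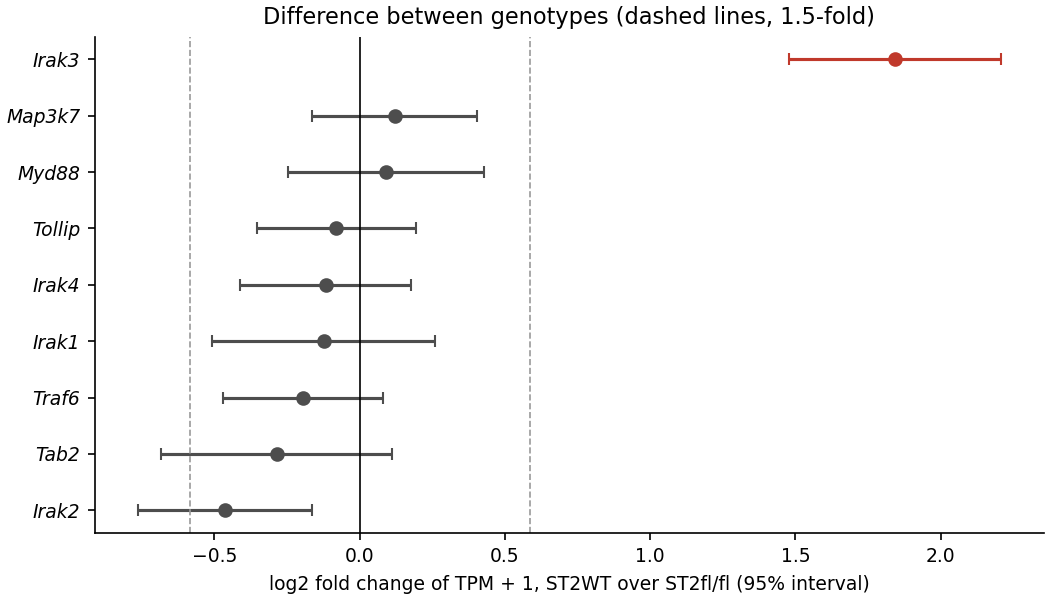
Log2 fold change of TPM + 1, ST2WT over ST2fl/fl (horizontal axis), for each of the 9 genes, with its 95% interval from limma and dashed lines at a fold change of 1.5. The interval of *Irak3*, from 1.48 to 2.21, lies wholly beyond the dashed line, that of *Irak2* excludes 0 on the other side, and the other 7 include 0.

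Since *Irak3* is best known from myeloid cells, the markers of other cells were read beside it. Of 14 myeloid markers 5 were in the table, and their summed level was 32.0 to 46.9 TPM in ST2WT and 44.1 to 63.1 TPM in ST2fl/fl libraries, with 0 of the 5 past the threshold. *Lyz2*, *Csf1r*, *Itgam*, *Adgre1*, *Cd14*, *S100a8*, *S100a9*, *Mpo* and *Cebpe* had no line in the table. The ranges of the myeloid sum overlapped. Of 8 dendritic cell markers 5 were listed, at 38.4 to 46.3 TPM in sum in ST2WT and 55.9 to 81.4 TPM in ST2fl/fl libraries, without overlap. *Cd74* made up most of that sum, at 33.1 to 40.6 TPM in ST2WT and 50.5 to 73.4 TPM in ST2fl/fl libraries (adjusted p = 0.0727 from limma). The sum of the 4 B cell markers used went with *Irak3*, at 283 to 294 TPM in ST2WT and 192 to 263 TPM in ST2fl/fl libraries. Most of that sum was *Ighm*, at 254 to 273 TPM in ST2WT and 178 to 241 TPM in ST2fl/fl libraries (adjusted p = 0.196 from limma). *Cd79b* was also higher in ST2WT cells (log2 fold change 0.60, adjusted p = 0.121 from limma). *Igkc* was lower (log2 fold change -0.50, adjusted p = 0.514 from limma). Of the 3 B cell markers tested 0 passed the threshold, and *Cd79a* and *Ms4a1* had no line. Of 7 markers of γδ T and NK cells 6 were listed, at 182 to 273 TPM in sum in ST2WT and 167 to 230.1 TPM in ST2fl/fl libraries, with 0 past the threshold. Among them *Klrd1*, the CD94 chain, was 120.4 to 201 TPM in ST2WT and 60.8 to 133 TPM in ST2fl/fl libraries (adjusted p = 0.134 from limma), and *Tcrg-C2*, a γ chain constant gene, 8.70 to 23.4 and 22.2 to 41.2 TPM (adjusted p = 0.106 from limma). With the recipient as a block, and again without the ST2WT library of recipient 2, *Klrd1* passed as higher, and *Tcrg-C2* and *Cd74* passed as lower. The part of these cells in the *Irak3* difference was not tested.

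A measured neighbor of *Irak3* is *Tmbim4*, a gene of the Bax inhibitor family that starts 0.54 kb away on the opposite strand. It was named after its values were seen. It covers 192 of the 3676 exon bases of *Irak3* (5.22%). *Tmbim4* was 141 ± 12.1 TPM in ST2WT and 105 ± 5.61 TPM in ST2fl/fl cells (SD, n = 4 each), and its groups did not overlap either (adjusted p = 0.0654 from limma, at a log2 fold change of 0.43 with an SE of 0.09). Its ratio of means, 1.35, is smaller than the 5.05 of *Irak3*. The level of *Irak3* relative to *Tmbim4* was 0.0500 to 0.0801 in ST2WT and 0.0108 to 0.0211 in ST2fl/fl libraries, again without overlap. If reads were counted without regard to strand, those from the shared bases cannot be told apart. Of the 5 genes tested within 1 Mb of *Irak3*, *Tmbim4* was the single one at an unadjusted p under 0.05 and 0 passed the threshold.

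The promoters of *Irak3* and *Irak2* are printed because these are the genes whose libraries did not overlap between genotypes. RefSeq (GRCm38.p6) gives 2 starts for *Irak3*, with windows of 250 bases before to 50 after the start at chr10:120201548-120201847 and chr10:120202081-120202380, both on the minus strand. The window of *Irak2* is chr6:113638217-113638516 on the plus strand. Each reads 5′ to 3′ along its gene, and capitals mark matches on either strand to an NF-κB-type pattern, GGGNNNNNCC, or to the E-box CACGTG.
Irak3, start nearer the gene body: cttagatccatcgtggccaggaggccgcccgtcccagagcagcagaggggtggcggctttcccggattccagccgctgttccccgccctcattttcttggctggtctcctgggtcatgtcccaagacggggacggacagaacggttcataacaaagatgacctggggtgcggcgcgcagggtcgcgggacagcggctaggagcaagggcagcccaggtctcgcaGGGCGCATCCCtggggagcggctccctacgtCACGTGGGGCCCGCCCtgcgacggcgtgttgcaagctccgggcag
Irak3, start farther upstream: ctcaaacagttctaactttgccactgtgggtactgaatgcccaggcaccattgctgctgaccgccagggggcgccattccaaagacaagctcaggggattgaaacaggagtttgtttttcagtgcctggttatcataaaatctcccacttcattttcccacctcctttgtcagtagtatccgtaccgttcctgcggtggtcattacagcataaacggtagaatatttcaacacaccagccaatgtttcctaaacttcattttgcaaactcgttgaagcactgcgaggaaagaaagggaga
Irak2: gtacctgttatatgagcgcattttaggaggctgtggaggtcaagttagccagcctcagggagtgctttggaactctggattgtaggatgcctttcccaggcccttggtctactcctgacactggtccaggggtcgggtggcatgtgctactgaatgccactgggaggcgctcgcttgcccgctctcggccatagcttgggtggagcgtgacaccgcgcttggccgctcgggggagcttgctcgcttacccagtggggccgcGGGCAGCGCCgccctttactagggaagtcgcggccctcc

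The first *Irak3* window held 4 matches to GGGNNNNNCC, counting both strands and overlaps. They form 2 overlapping pairs, of which the second overlaps the end of the single CACGTG. The second *Irak3* window held no match to either pattern, and the *Irak2* window held 1 match to GGGNNNNNCC. Neither TGANTCA, an AP-1-type pattern, nor TTCNNNGAA, a STAT-type pattern, occurred in any of the 3 windows. Such matches are common: GGGNNNNNCC occurred in 50.8% of all 32851 RefSeq promoter windows, CACGTG in 7.15%, TGANTCA in 7.81% and TTCNNNGAA in 8.30%. The GC content was 67.3% and 46.7% in the *Irak3* windows and 62.3% in that of *Irak2*. The start of *Tmbim4*, on the opposite strand, lies inside the first *Irak3* window, so the matches there cannot be assigned to either gene alone. All these matches are letters in a window, and no binding was measured.

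*Irak2*, which sustains signaling after IRAK1 has been used up, had lower values in ST2WT cells but did not pass the threshold. It lies on chromosome 6 from 113638467 to 113695026. In recipients 1 to 4 it was 3.44, 3.50, 4.51 and 3.17 TPM in ST2WT cells and 5.89, 4.53, 6.09 and 5.15 TPM in ST2fl/fl cells. All ST2WT libraries were below all ST2fl/fl libraries, although the highest ST2WT value and the lowest ST2fl/fl value nearly met. The ratio within a recipient was 0.584, 0.772, 0.741 and 0.617.

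The mean of *Irak2* was 3.66 ± 0.588 TPM in ST2WT and 5.41 ± 0.713 TPM in ST2fl/fl cells (SD, n = 4 each), a ratio of 1.48 in favor of ST2fl/fl. The log2 fold change was -0.46 (SE 0.14, 95% interval -0.76 to -0.16). It did not pass over all genes (unadjusted p = 0.00593, adjusted p = 0.185 from limma), although the two-sided exact permutation p was the smallest possible, 0.0286. With the recipient as a block the adjusted p was 0.101 from limma, and with libraries weighted by their quality it was 0.0535. At rank 327 by unadjusted p, *Irak2* was the nearest to *Irak3* among the 9 genes.

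Of the 9 genes, *Irak2* was the one on a chromosome with *Gt(ROSA)26Sor*, *Il1rl1* or *Ptprc*. The insertion site of *CD4-Cre* was not located here. The start of *Irak2* is 561 kb from that of *Gt(ROSA)26Sor*, a noncoding transcript of Rosa26, where the reporter of the ST2fl/fl donors was placed. *Gt(ROSA)26Sor* was 101 ± 7.16 TPM in ST2WT and 36.9 ± 4.39 TPM in ST2fl/fl cells (log2 fold change 1.44, adjusted p = 9.45e-05 from limma). Of the 19 other genes tested within 1 Mb of its start, 0 passed the threshold, 1 had an unadjusted p under 0.05, and that gene was *Irak2*. Their median log2 fold change was -0.05. Within 5 Mb there were 41 genes, with 0 past the threshold and a median of -0.04. At an unadjusted p under 0.05, 3 of them were lower in ST2WT cells and 0 higher, where 728 and 696 of all 10238 genes tested were. Whether DNA linked to the reporter has a part in the *Irak2* difference was not tested. No gene of the 9 lies on chromosome 1, which carries *Il1rl1* and the CD45 gene *Ptprc*.

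**Figure D3:**
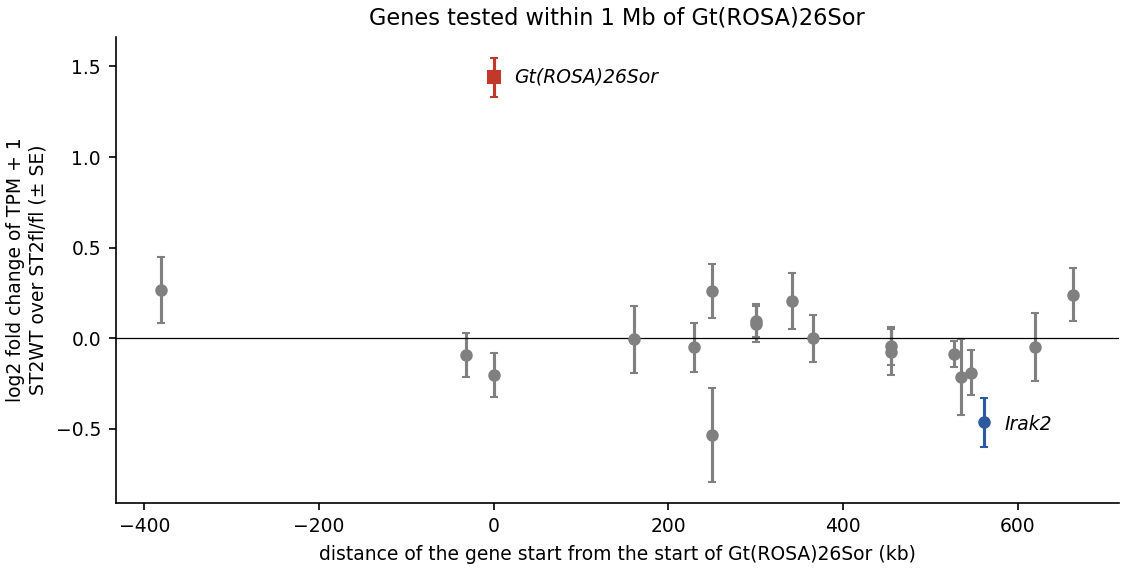
Log2 fold change of TPM + 1, ST2WT over ST2fl/fl (vertical axis, ± SE), of the genes tested within 1 Mb of *Gt(ROSA)26Sor* against the distance of their starts in kb (horizontal axis). *Gt(ROSA)26Sor* stands at 1.44, *Irak2* at -0.46 and 561 kb, and none of the 19 neighbors passed the threshold.

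The makeup of the IRAK transcripts differed between the genotypes in the share of *Irak3*, while the ranges of their sum overlapped. Summed over the 4 family members, the level was 41.0 ± 4.06 TPM (35.6 to 45.5) in ST2WT and 38.1 ± 2.63 TPM (35.0 to 41.4) in ST2fl/fl libraries (SD, n = 4 each). *Irak3* made up 21.3% ± 2.39 of this sum in ST2WT and 4.52% ± 1.16 in ST2fl/fl libraries (SD, n = 4 each), with ranges of 18.1% to 23.8% and 2.94% to 5.65%. *Irak2* made up 8.93% ± 1.12 against 14.3% ± 2.25, with ranges of 7.71% to 9.92% and 12.1% to 17.4%. Neither pair of ranges overlapped. *Irak1* held 44.5% ± 7.40 and 51.9% ± 4.07, and *Irak4* 25.3% ± 6.11 and 29.3% ± 4.33, with overlap in both.

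Read as a ratio within each library, *Irak3* was 2.19 to 2.75 times the level of *Irak2* in ST2WT cells and 0.243 to 0.422 times in ST2fl/fl cells. The inhibitory transcript was thus the more abundant of the pair in all 4 ST2WT libraries and the less abundant in all 4 ST2fl/fl libraries. Relative to *Irak4*, *Irak3* was 0.642 to 1.12 in ST2WT and 0.0929 to 0.209 in ST2fl/fl libraries. Relative to *Myd88* it was 0.0766 to 0.173 and 0.0162 to 0.0325. These shares and ratios are descriptions, and as *Irak3* enters each of them they are not independent of its own difference.

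**Figure D4:**
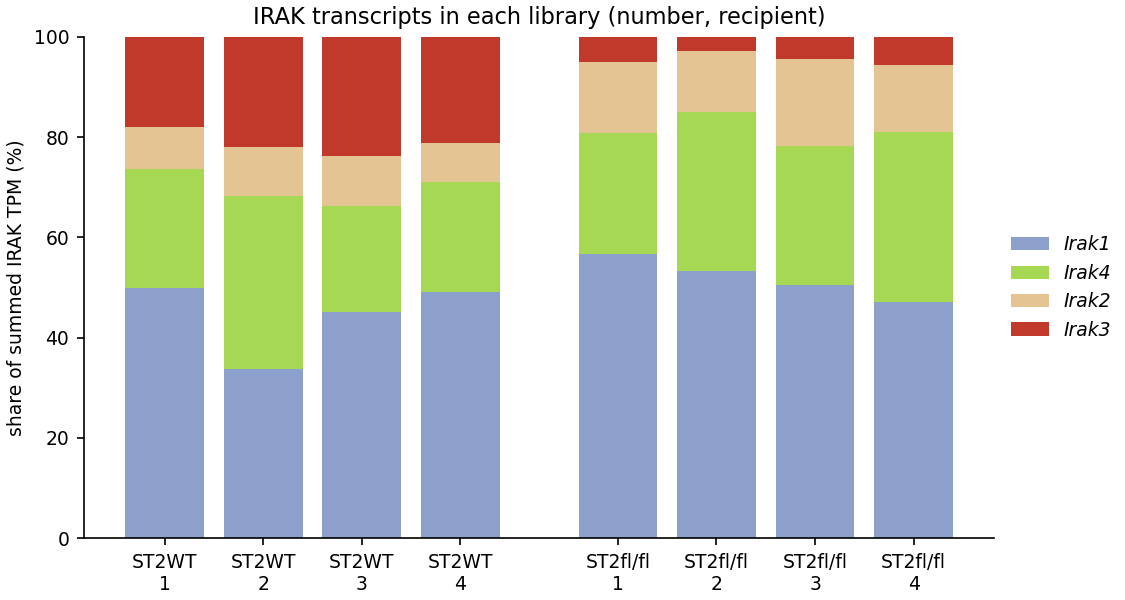
Share of *Irak1*, *Irak4*, *Irak2* and *Irak3* in their summed TPM (vertical axis, %) in each of the 8 libraries, 1 bar for each genotype and recipient number. The *Irak3* segment takes 18.1% to 23.8% of each ST2WT bar and 2.94% to 5.65% of each ST2fl/fl bar.

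The TRAF6 and TAK1 step showed no gene past the threshold. *Traf6*, on chromosome 2 from 101678429 to 101701669, encodes the ubiquitin ligase of the relay. It was 4.50, 3.97, 3.54 and 3.23 TPM in ST2WT and 4.87, 3.99, 4.54 and 4.57 TPM in ST2fl/fl libraries of recipients 1 to 4. The ST2WT value was the lower one in all 4 recipients, but in recipient 2 the paired libraries were all but equal, and the groups overlapped. The log2 fold change was -0.20 (95% interval -0.47 to 0.08, two-sided exact permutation p = 0.0571, adjusted p = 0.486 from limma).

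*Tab2*, on chromosome 10 from 7905653 to 7956230, encodes the subunit that ties TAK1 to ubiquitin chains. It was 26.9, 15.5, 25.3 and 30.4 TPM in ST2WT and 29.9, 25.5, 31.6 and 30.4 TPM in ST2fl/fl libraries. The ST2WT library of recipient 2 was again far below the rest, and in recipient 4 both genotypes were at 30.4 TPM. A log2 fold change of -0.29 was measured with all libraries (95% interval -0.68 to 0.11, adjusted p = 0.484 from limma) and one of -0.09 without that library. *Map3k7*, on chromosome 4 from 31964097 to 32023467, encodes TAK1 itself. It was 12.0, 8.69, 12.9 and 10.4 TPM in ST2WT and 10.1, 10.3, 9.41 and 9.93 TPM in ST2fl/fl libraries. Its ST2fl/fl libraries were tightly grouped inside the wider ST2WT range (log2 fold change 0.12, 95% interval -0.16 to 0.40, adjusted p = 0.676 from limma).

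*Tollip*, which binds IL-1 receptor complexes and restrains IRAK1, is the other brake among the 9 genes and did not share the pattern of *Irak3*. It lies on chromosome 7 from 141874813 to 141918507. It was 10.3, 8.95, 8.04 and 9.04 TPM in ST2WT and 10.6, 10.7, 8.07 and 9.32 TPM in ST2fl/fl libraries. The ST2WT value was slightly the lower one in each recipient, and the ranges lay almost on top of each other (log2 fold change -0.08, 95% interval -0.35 to 0.20, adjusted p = 0.782 from limma). Over the 8 genes that did not pass, the 95% intervals reached no farther than a 1.70-fold difference on the TPM + 1 scale. That limit is the far end of the *Irak2* interval, and for none of the 8 does the missed threshold show that the genotypes were alike.

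The order of the levels differed between genotypes mainly in *Irak3* and *Irak2*. In ST2WT cells it ran from *Myd88* through *Tab2*, *Irak1*, *Map3k7*, *Irak4*, *Tollip*, *Irak3* and *Traf6* to *Irak2*. In ST2fl/fl cells *Irak3* was last, *Irak2* stood above *Traf6*, and *Irak4* stood above *Map3k7*. Over all libraries *Myd88* had 17.0 times the mean level of *Traf6*, and it stood at rank 1548 of the 12417 entries by mean TPM. The ranges of *Map3k7*, *Irak4* and *Tollip* overlapped in both genotypes, so these neighbors in the order did not differ beyond their spread. The ranges of *Traf6* and *Irak2* overlapped too, although *Irak2* was above *Traf6* in all 4 ST2fl/fl libraries. *Irak3* overlapped *Tollip* in ST2WT libraries and lay below every other gene of the 9, without overlap, in ST2fl/fl libraries.

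The genes most like *Irak3* over the 8 libraries, by Pearson r on log2(TPM + 1) among 7173 genes averaging 5 TPM or more, were *Klrc1*, *Ctse* and *Ide*. *Klrc1*, the gene of the receptor NKG2A, had an r of 0.979 and means of 138 TPM in ST2WT and 33.6 TPM in ST2fl/fl cells. *Ctse*, the protease cathepsin E, had an r of 0.973, with 237 and 5.47 TPM. *Ide*, insulin-degrading enzyme, had an r of 0.972, with 44.6 and 23.9 TPM. All 3 share with *Irak3* the split between genotypes. For *Myd88* the closest were *Nudt16l1* (r = 0.983), *Rad1* (r = 0.981) and *Arpc1b* (r = 0.979), and these libraries include that of recipient 2, in which *Myd88* was far above the other 7.

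Beyond the 9 genes, lists of receptors, partners, outputs and other brakes of the pathway were read in the same fit. They hold 148 genes, each counted once, of which 129 were in the table and 123 could be tested. Past the threshold, 0 were higher and 1 was lower in ST2WT cells. At an unadjusted p under 0.05, 1 of the 123 was higher and 17 lower, where 696 and 728 of all 10238 genes tested were. Both directions together made 14.6% of those tested against 13.9% of all genes. The median log2 fold change was -0.12, with 29 genes above 0 and 94 below, against a median of -0.01 over all genes.

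Among IL-1 family receptors and TIR adaptors, 13 of 28 genes could be tested and 0 passed. Before adjustment, 3 (23.1%) had a p under 0.05, against 13.9% of all genes tested. All 3 were lower in ST2WT cells, as were 728 of all 10238 genes tested. *Il1rap*, the accessory chain that ST2 needs, was 1.85 ± 0.111 TPM in ST2WT and 2.68 ± 0.280 TPM in ST2fl/fl cells (log2 fold change -0.36, adjusted p = 0.220 from limma). *Tlr1*, a receptor for bacterial lipopeptides, was 16.7 ± 1.38 and 24.0 (23.99) ± 2.86 TPM (adjusted p = 0.106 from limma). *Il1r1*, the IL-1 receptor, was 2.37 and 4.33 TPM on average (adjusted p = 0.134 from limma). The values of these 3 receptors lay lower in ST2WT cells, and those of *Il1rap* and *Tlr1* did so without overlap, as did those of 5.45% of all genes tested. *Il18rap*, a chain of the IL-18 receptor, which also signals through MyD88, was 55.2 ± 6.81 and 64.0 (63.96) ± 8.37 TPM (adjusted p = 0.457 from limma).

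Of the partners of TRAF6 and TAK1, 26 of 29 could be tested, 0 passed and 0 had an unadjusted p under 0.05 (median log2 fold change -0.07). The smallest p belonged to *Map3k3*, *Traf3ip2*, *Rnf31* and *Birc3*, a kinase, an adaptor and a pair of ubiquitin ligases, with log2 fold changes of -0.31, 0.18, -0.30 and -0.23. Of the IKK and NF-κB genes all 16 could be tested and 0 passed. *Nfkb2*, a precursor subunit that NF-κB itself induces, was 8.03 ± 0.904 TPM in ST2WT and 10.8 ± 0.483 TPM in ST2fl/fl cells (adjusted p = 0.173 from limma), without overlap. *Ikbkb*, *Nfkb1* and *Nfkbie* followed by p, with log2 fold changes of -0.27, -0.23 and -0.25. Of the p38, JNK and ERK arm, 19 of 22 genes could be tested, and 0 passed or had an unadjusted p under 0.05. The smallest p there belonged to the kinases *Mapk9*, *Mapk14* and *Rps6ka5* and the AP-1 subunit *Fosl2*, at -0.24, -0.33, 0.34 and -0.30.

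Of 30 other brakes of the pathway 28 could be tested, and 0 passed in either direction. At an unadjusted p under 0.05, 0 of the 28 were higher and 4 lower, where 696 and 728 of all 10238 genes tested were. Both directions together made 14.3% of those tested against 13.9% of all genes. Of the 28, 5 stood above and 23 below a log2 fold change of 0 (median -0.18). *Tnfaip3*, the gene of the deubiquitinase A20, was 3.98 ± 0.716 TPM in ST2WT and 6.33 ± 0.672 TPM in ST2fl/fl cells (adjusted p = 0.121 from limma, log2 fold change -0.56). *Tnip1*, which encodes an A20-binding protein, was 12.7 ± 2.51 and 18.4 ± 1.12 TPM (log2 fold change -0.52, adjusted p = 0.140 from limma). *Trim30a*, which in mouse promotes breakdown of TAB2, was 72.2 ± 10.3 and 93.4 ± 7.79 TPM (adjusted p = 0.204 from limma). The ST2WT libraries were below the ST2fl/fl libraries without overlap for these 3 genes, as for 5.45% of all genes tested. The 3 were named for having the smallest p of the list, which favors such a separation. *Dusp6*, an ERK phosphatase, had a log2 fold change of -0.53 with overlap (adjusted p = 0.335 from limma). With the recipient as a block, 0 brakes of this list passed. At an unadjusted p under 0.05, 0 were higher and 8 lower (28.6%). Of all genes in that fit 20.2% were under 0.05, 1050 higher and 1018 lower.

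Of 32 listed genes that NF-κB and AP-1 are known to induce, 30 could be tested, with 0 past the threshold as higher and 1 as lower. Their log2 fold changes were above 0 for 6 and below 0 for 24, with a median of -0.21. At an unadjusted p under 0.05, 1 was higher and 11 lower, where 696 and 728 of all 10238 genes tested were. *Ccl4*, a chemokine, was the one past the threshold, with 40.5 ± 18.9 TPM in ST2WT against 366 ± 161 TPM in ST2fl/fl cells (log2 fold change -3.16, adjusted p = 0.00601 from limma). *Cd69*, an early activation marker, was 150.5 ± 3.98 and 209 ± 16.1 TPM, with an adjusted p of 0.0246 from limma but a fold change under 1.5. *Ccnd2*, a cyclin, was 31.2 ± 3.09 and 42.4 ± 2.31 TPM (adjusted p = 0.103 from limma), and *Ccl3*, a second chemokine, had a log2 fold change of -2.31 with overlap (adjusted p = 0.110 from limma). *Cd4*, a marker of the sorted cells, had a log2 fold change of -0.40 (adjusted p = 0.151 from limma). Of the 8 T cell markers 0 passed the threshold. At an unadjusted p under 0.05, 0 of the 8 were higher and 5 lower (62.5%, against 13.9% of all genes). *Cd3g* had an adjusted p of 0.0106 from limma (log2 fold change -0.33) but a fold change under 1.5. *Lck* and *Cd5* were nearly level, with log2 fold changes of -0.04 and 0.05. The summed T cell markers, mostly *Cd3d* and *Cd3g*, were 6057 to 6480 TPM in ST2WT and 7208 to 7494 TPM in ST2fl/fl libraries. Their part in the lower values of these lists was not tested.

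**Figure D5:**
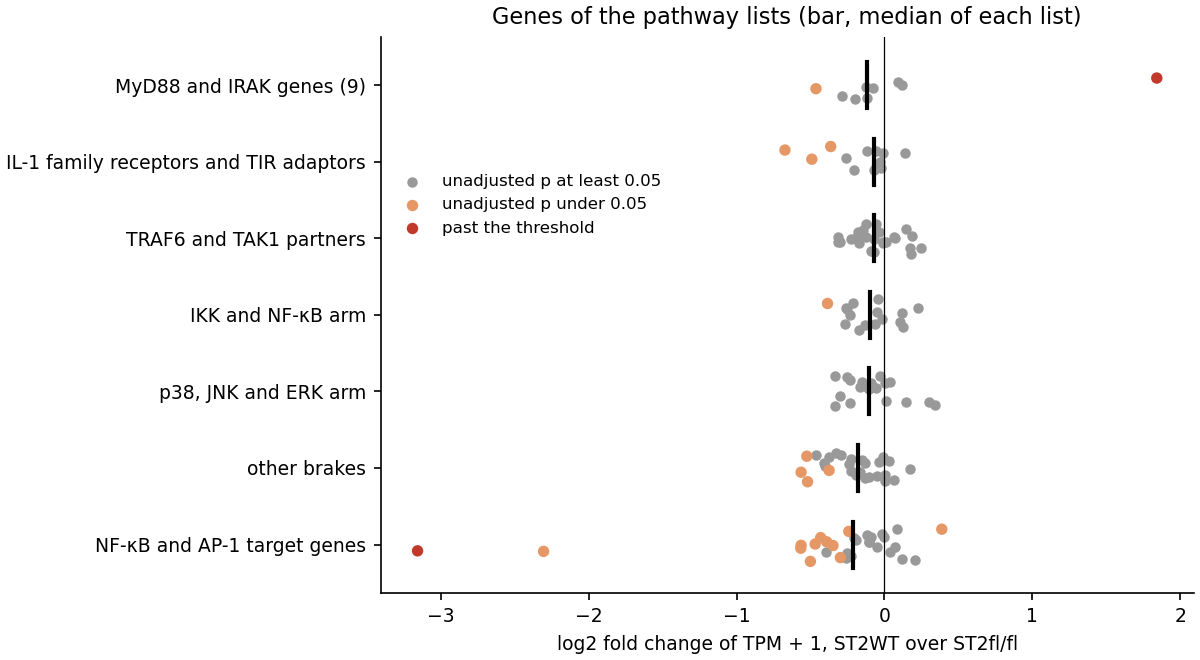
Log2 fold change of TPM + 1, ST2WT over ST2fl/fl (horizontal axis), of each gene tested of the 9 and of the 6 pathway lists (rows), with bars at the medians and colors for the test. *Irak3*, at 1.84, is the single gene past the threshold on the right and *Ccl4*, at -3.16, the single one on the left, and the list medians lie between -0.21 and -0.07.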

How the data were processed

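Both genotypes (4 libraries each) were sorted by the authors into SmartSeq lysis buffer, prepared with Nextera XT, sequenced on a NextSeq500, and aligned and assigned to genes with CLC Genomics Workbench 20.0.3 on GRCm38.p6. The deposited values are TPM, made by the authors for each library separately. No entry is 0 in any library. The authors' own comparison ran edgeR with TMM on assigned reads, which cannot be redone on TPM. The annotation release and the use of strand are not given in the sources used here.

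The 9 genes, the lists and the tests were chosen with earlier results of these data known. Genes averaging 1 TPM or more (10238, with 2179 below) were compared on log2(TPM + 1) with limma 3.58.1 (R 4.3.3), with variances following a trend on expression, no covariate, and Benjamini-Hochberg adjustment over all genes tested. The test was tested on simulated data. All 70 labelings, which ignore the pairs, entered each two-sided exact permutation test, and swaps within recipients only were added after seeing the data. Named list genes are those past the threshold and up to 4 with the smallest p. *Tmbim4*, *Acaa1a*, *Twf1*, *Klrd1*, *Tcrg-C2*, *Cd74*, *Ighm*, *Cd79b*, *Igkc*, *Cd4*, *Lck*, *Cd5*, *Cd3d* and *Cd3g*, with the marker genes that had no line in the table, fall outside this rule. Alternatives were pseudocounts of 0.1, 0.5 and 5, no filter or a mean of at least 5 TPM, scaling by trimmed means of log ratios, quantiles or without mitochondrial genes, other variance models, array weights, the recipient block, and leaving out libraries. The block is used because the design pairs the donors in a recipient. Deviations from the group means also correlated within numbers (0.195, 0.352, 0.118 and 0.163) more than between them (-0.283 to 0.109). P-values measure the spread between these libraries. GENCODE M21 (GRCm38) gave the coordinates, with 96.8% of symbols matching 1 gene. Promoters are from RefSeq on GRCm38.p6, with all 9 genes matched. Figures were drawn with matplotlib 3.10.9. Results of some single genes are left out.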

Additional observations from a re-analysis of the deposited data

Results flagged for a closer look

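*Irak1* was 12.1 TPM in the ST2WT library of recipient 2, far below the other 3 ST2WT libraries at 20.2 to 20.8 TPM. The gap to the nearest library was 0.934 of the whole range, above Dixon's 95% critical value for 4 libraries. This was 1 of 18 groups of 4 libraries checked, and chance alone marks about 1 in 20. The same library had the highest *Myd88* (102 TPM) and the lowest *Tab2* (15.5 TPM) of its genotype, and its share of mitochondrially encoded transcripts was 9.18%, where the other libraries had 12.7% to 13.8%. Their part in the *Irak1* value was not tested.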

How the results depend on the processing

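*Irak3* passed the threshold in all 24 alternatives (adjusted p from 8.33e-05 to 0.0149 and log2 fold change from 1.03 to 2.30, limma), and none of the other 8 genes passed in any alternative in which it was tested. A mean of at least 5 TPM left *Irak2* and *Traf6* untested. The adjusted p of *Irak2* ranged from 0.0535 with array weights to 0.611. With the recipient as a replicate block, 38 genes passed as higher and 57 as lower in ST2WT cells, against 25 and 28 without it, and no call among the 9 genes changed. A pseudocount of 5 left 13 genes higher, a mean of at least 5 TPM left 15, and array weights gave 56 higher and 74 lower. Leaving out 1 library or 1 recipient gave 5 to 46 genes higher and 4 to 65 lower, with 5 and 4 without recipient 1, 46 higher without the ST2WT library of recipient 2 and 65 lower without recipient 2. The sign of 3 genes turned, none past the threshold. *Myd88* was -0.053 with array weights and -0.076 to 0.18 on leaving out libraries. *Irak1* was 0.046 with array weights and -0.23 to 0.064 on leaving out libraries. *Irak4* was -0.20 to 0.0077 on leaving out libraries. The cause was not tested. Other scalings moved the median of all genes to no more than -0.03. TPM hold no depth, so the precision of the low levels of *Irak2*, *Irak3* and *Traf6* rests on the spread of 4 libraries.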
